A study of Homo sapiens with 12 samples.

Results

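The transcripts of 10 Fanconi anemia genes, FANCA, FANCB, FANCC, FANCD2, FANCE, FANCF, FANCG, FANCI, FANCL and FANCM, were followed in HCT116 cells with and without degradation of SDS22. They were chosen by name from the 58233 genes of the count table, each matched 1 row, and all 10 were among the 16657 genes with enough reads to be tested. Of these genes, 2 lie on chromosomes 3 (FANCD2) and 16 (FANCA) and are described apart from the other 8, because the genes of these chromosomes were on balance lower in the SDS22-degron line before any treatment.

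HCT116 is a human colorectal carcinoma line. Its parental derivative HCT116 Tet-OsTIR1 expresses the plant F-box protein OsTIR1 from a tetracycline-inducible promoter inserted in the AAVS1 locus, and the SDS22-degron line made from it carries the mAID-mClover tag on the endogenous SDS22 protein, the product of PPP1R7. Doxycycline (Dox) switches on OsTIR1 and the auxin indole-3-acetic acid (IAA) then directs the tagged protein to degradation. Parental and SDS22-degron cells were either left untreated or exposed to both agents (Dox/IAA, Dox at 2 µg/ml and IAA at 500 µM, for 48 h), with 3 libraries per group and 12 in all, each labelled as a biological replicate. Both lines thus carry OsTIR1 and were grown in low glucose DMEM medium, and untreated SDS22-degron cells already carry the tag. The edited line was grown from isolated colonies, so that an effect of the tag cannot be told apart from other differences between the lines.

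The proteins of these genes act in 1 pathway that repairs DNA crosslinks. FANCM, a DNA translocase, anchors a core complex on DNA, in which FANCA, FANCB, FANCC, FANCE, FANCF and FANCG hold the ubiquitin ligase FANCL, and FANCL works with the conjugating enzyme UBE2T. The complex attaches ubiquitin to the FANCI-FANCD2 pair, nucleases then cut out the crosslink, and homologous recombination restores the strand. The pathway is known to act mainly in S phase, when replication forks meet crosslinks.

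The libraries held 12133915 to 14657508 reads on genes, and a Fanconi anemia gene had between 34 counts (FANCB) and 2223 counts (FANCI) in a library. Levels are given as CPM, the counts relative to the total of the library after TMM scaling. The markers of an epithelial line (EPCAM, KRT8, KRT18, KRT19, CDH1 and VIL1) summed to between 2634 and 4191 CPM. VIL1 added next to nothing to this sum, with at most 2 counts in a library, too few to be tested. The 6 markers of blood, stromal and endothelial cells summed to between 9.88 and 31.8 CPM, between 3 and 5 of them were at 0 in every library of a group, and the summed level was higher in both Dox/IAA groups. COL1A1, the only 1 of the 6 with enough reads to be tested, made up nearly all of it. Its mean was 11.5 CPM in untreated and 20.1 CPM in treated parental cells, and 14.5 and 27.8 CPM in SDS22-degron cells. The transcript of PPP1R7, which does not report the loss of the protein, stayed between 40.1 and 51.1 CPM. In bulk RNA, fewer cells with a transcript and less of it in each cell cannot be told apart.

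Promoters are shown for the genes with the clearest and the least clear difference between the treated lines, as the bases before the start site in RefSeq (GRCh38.p14), read 5′ to 3′ on the strand of the gene. RefSeq entries were found for 9 of the 10 genes, not for FANCI, and FANCC had 2. FANCF had the largest p, but its window lies inside its listed exon, so FANCE, the next by p, is printed. Capitals mark matches, on either strand, to TTTNNCGC (E2F-like), TTTGAA (CHR-like, named for the cell cycle homology region), CCAAT or GGGCGG (GC box). The stretches shown for FANCA (chr16:89816658-89816897, minus strand), FANCD2 (chr3:10026187-10026413, plus strand) and FANCE (chr6:35452088-35452337, plus strand) end before the listed transcripts.
FANCA: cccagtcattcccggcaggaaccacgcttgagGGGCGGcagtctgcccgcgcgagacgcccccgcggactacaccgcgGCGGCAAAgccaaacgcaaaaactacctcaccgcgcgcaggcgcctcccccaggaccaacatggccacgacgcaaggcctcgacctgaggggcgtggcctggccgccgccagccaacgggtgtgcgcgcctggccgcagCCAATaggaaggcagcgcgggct
FANCD2: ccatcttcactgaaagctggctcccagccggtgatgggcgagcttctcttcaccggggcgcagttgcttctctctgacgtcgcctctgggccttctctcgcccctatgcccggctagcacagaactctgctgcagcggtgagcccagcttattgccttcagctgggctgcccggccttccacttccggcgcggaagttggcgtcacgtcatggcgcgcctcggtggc
FANCE: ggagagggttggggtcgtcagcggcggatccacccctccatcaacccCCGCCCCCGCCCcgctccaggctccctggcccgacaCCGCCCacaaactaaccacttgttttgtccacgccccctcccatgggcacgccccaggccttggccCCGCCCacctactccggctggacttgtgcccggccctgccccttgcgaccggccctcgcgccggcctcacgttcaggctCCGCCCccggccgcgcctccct
The FANCA promoter held 1 GC box, 1 E2F-like match and 1 CCAAT, the FANCD2 promoter held none of these letters, and that of FANCE held 5 GC boxes. Over the 250 bases before each start, 2 of the 10 promoters of these genes (FANCA and 1 of the 2 of FANCC) held the E2F-like letters, against 6.85% of 22981 promoters of genes in the table. The CHR-like letters stood in 1 of 10 against 11.4%, CCAAT in 3 of 10 against 32.7%, and the GC box in 7 of 10 against 51.5%. The GC box stood in windows of FANCA, FANCB, FANCC, FANCE, FANCG and FANCL, and CCAAT in those of FANCA, FANCF and FANCM. The window of FANCF lies inside its listed exon. Both FANCC windows lie inside its listed gene, and a search for exact letters in 250 bases cannot show that a site is absent. The part of these motifs in the differences was not tested.

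The level of each gene was compared per kilobase of its listed length, to set genes side by side. That length is given per gene, with 32 annotated transcripts for FANCA and 1 for FANCE. The order between genes therefore also depends on the annotation. FANCI stood highest in all 4 groups, from 20.98 ± 1.53 CPM per kb (SD, n = 3) in untreated parental cells to 7.99 ± 0.788 CPM per kb in treated SDS22-degron cells. In untreated parental cells it was followed by FANCG (17.02 ± 0.608), FANCA (11.03 ± 0.605), FANCE (9.84 ± 0.458), FANCD2 (8.72 ± 0.593) and FANCL (6.64 ± 0.275 CPM per kb), and the libraries of neighbours in this order did not overlap. FANCC, FANCB, FANCM and FANCF lay between 3.28 and 2.12 CPM per kb, and each overlapped with the next. In treated SDS22-degron cells the order changed. FANCI, FANCE (7.59 ± 0.712), FANCL (7.39 ± 1.26) and FANCG (6.93 ± 0.0739 CPM per kb) came together at the top with overlapping neighbours, FANCD2 and FANCA had moved next to each other at 3.43 ± 0.185 and 3.38 ± 0.119 CPM per kb, and FANCB was last at 0.976 ± 0.174 CPM per kb. FANCL, the catalytic subunit, moved in this order from the sixth place to the third.

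**Figure D1:**
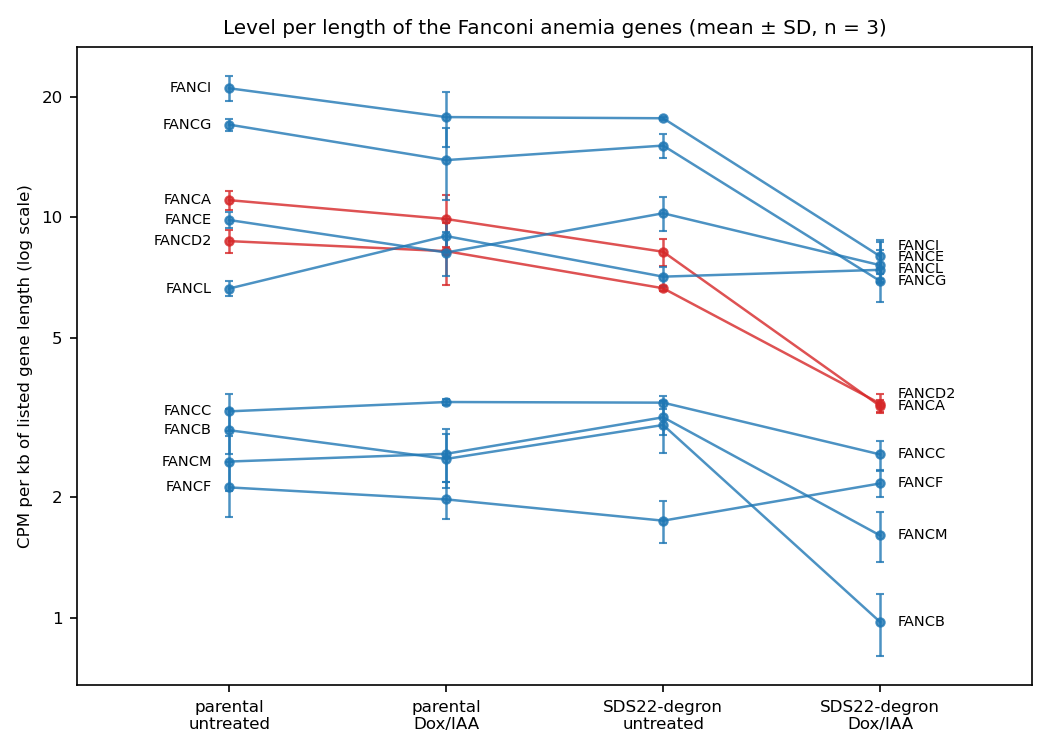
Mean level of each gene per kilobase of its listed length (CPM per kb, log axis) in the 4 groups, with the SD over 3 libraries as bars and the genes of chromosomes 3 and 16 in red. FANCI, FANCG, FANCA, FANCD2, FANCB and FANCM fall most from untreated to treated SDS22-degron cells, while FANCC, FANCE, FANCL and FANCF stay within a narrower range.

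The genes on chromosomes 3 and 16 gave the following values per library. FANCA, the gene most often mutated in Fanconi anemia (ENSG00000187741, chromosome 16, 89737549 to 89816657, minus strand), was at 103, 114 and 104 CPM in untreated parental cells and at 87.5, 113 and 88.5 CPM after Dox/IAA. In SDS22-degron cells it was at 87.0, 77.2 and 75.3 CPM untreated and at 34.0, 32.9 and 31.7 CPM after Dox/IAA. The untreated lines did not overlap, and the treated SDS22-degron libraries lay far below every other library. FANCD2, which receives the ubiquitin (ENSG00000144554, chromosome 3, 10026414 to 10101930, plus strand), was at 68.4, 78.3 and 72.4 CPM in untreated and 59.1, 82.6 and 65.1 CPM in treated parental cells. It was at 54.8, 56.1 and 56.2 CPM in untreated SDS22-degron cells and at 30.3, 28.7 and 27.2 CPM after Dox/IAA. As for FANCA, each SDS22-degron group stood below its parental counterpart, without overlap.

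Among the other genes, FANCI, the partner of FANCD2 (ENSG00000140525, chromosome 15, 89243949 to 89317261, plus strand), was at 165, 174 and 150.2 CPM in untreated and 116, 159 and 139 CPM in treated parental cells. In SDS22-degron cells it was at 136, 138 and 137 CPM untreated and at 69.1, 58.5 and 58.5 CPM after Dox/IAA. Treated SDS22-degron libraries were again the lowest. FANCB, which pairs with FANCL in the catalytic module (ENSG00000181544, chromosome X, 14843407 to 14873069, minus strand), was scarce, at 9.88, 10.4 and 8.07 CPM in untreated and 7.87, 9.32 and 6.84 CPM in treated parental cells. In SDS22-degron cells it went from 10.6, 10.5 and 8.05 CPM untreated to 3.74, 2.63 and 3.05 CPM treated. The 3 other groups overlapped with each other and not with the treated SDS22-degron libraries.

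FANCG, a scaffold that binds FANCA (ENSG00000221829, chromosome 9, 35073835 to 35080016, minus strand), was at 62.6, 63.0 and 59.0 CPM in untreated and 41.5, 61.6 and 47.4 CPM in treated parental cells. It was at 57.4, 55.9 and 50.3 CPM in untreated and 25.3, 25.0 and 24.8 CPM in treated SDS22-degron cells. Its treated parental libraries were spread widely and its treated SDS22-degron libraries hardly at all. FANCM (ENSG00000187790, chromosome 14, 45135940 to 45200890, plus strand) was at 20.2, 24.3 and 17.9 CPM in untreated and 20.02, 25.5 and 19.7 CPM in treated parental cells. In SDS22-degron cells it was at 27.8, 28.8 and 23.8 CPM untreated, the highest group, and at 15.4, 11.5 and 13.8 CPM treated, the lowest.

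The remaining genes of the core complex moved less. FANCC (ENSG00000158169, chromosome 9, 95099054 to 95426796, minus strand) lay between 27.8 and 34.2 CPM in the 9 libraries of the 3 other groups and was at 25.9, 21.99 and 23.6 CPM in treated SDS22-degron cells. FANCE, which contacts FANCD2 (ENSG00000112039, chromosome 6, 35452361 to 35467103, plus strand), was at 24.2, 24.7 and 26.4 CPM in untreated and 17.8, 22.7 and 22.03 CPM in treated parental cells, and at 25.4, 24 and 29.0 CPM in untreated and 21.1, 17.5 and 19.5 CPM in treated SDS22-degron cells. Both treated groups were thus below their untreated counterparts and overlapped with each other. FANCF, an adaptor (ENSG00000183161, chromosome 11, 22622519 to 22626787, minus strand), was at 10.3, 9.30 and 7.498 CPM in untreated and 7.80, 8.06 and 9.44 CPM in treated parental cells, and at 7.07, 6.81 and 8.50 CPM in untreated and 8.85, 8.83 and 10.0 CPM in treated SDS22-degron cells. FANCL (ENSG00000115392, chromosome 2, 58159243 to 58241372, minus strand) was at 16.04, 16.7 and 15.3 CPM in untreated and 19.04, 22.8 and 23.05 CPM in treated parental cells, and at 16.3, 18.2 and 16.9 CPM in untreated and 16.9, 21.2 and 15.3 CPM in treated SDS22-degron cells. FANCF and FANCL were the genes whose mean was not lowest in treated SDS22-degron cells.

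**Figure D2:**
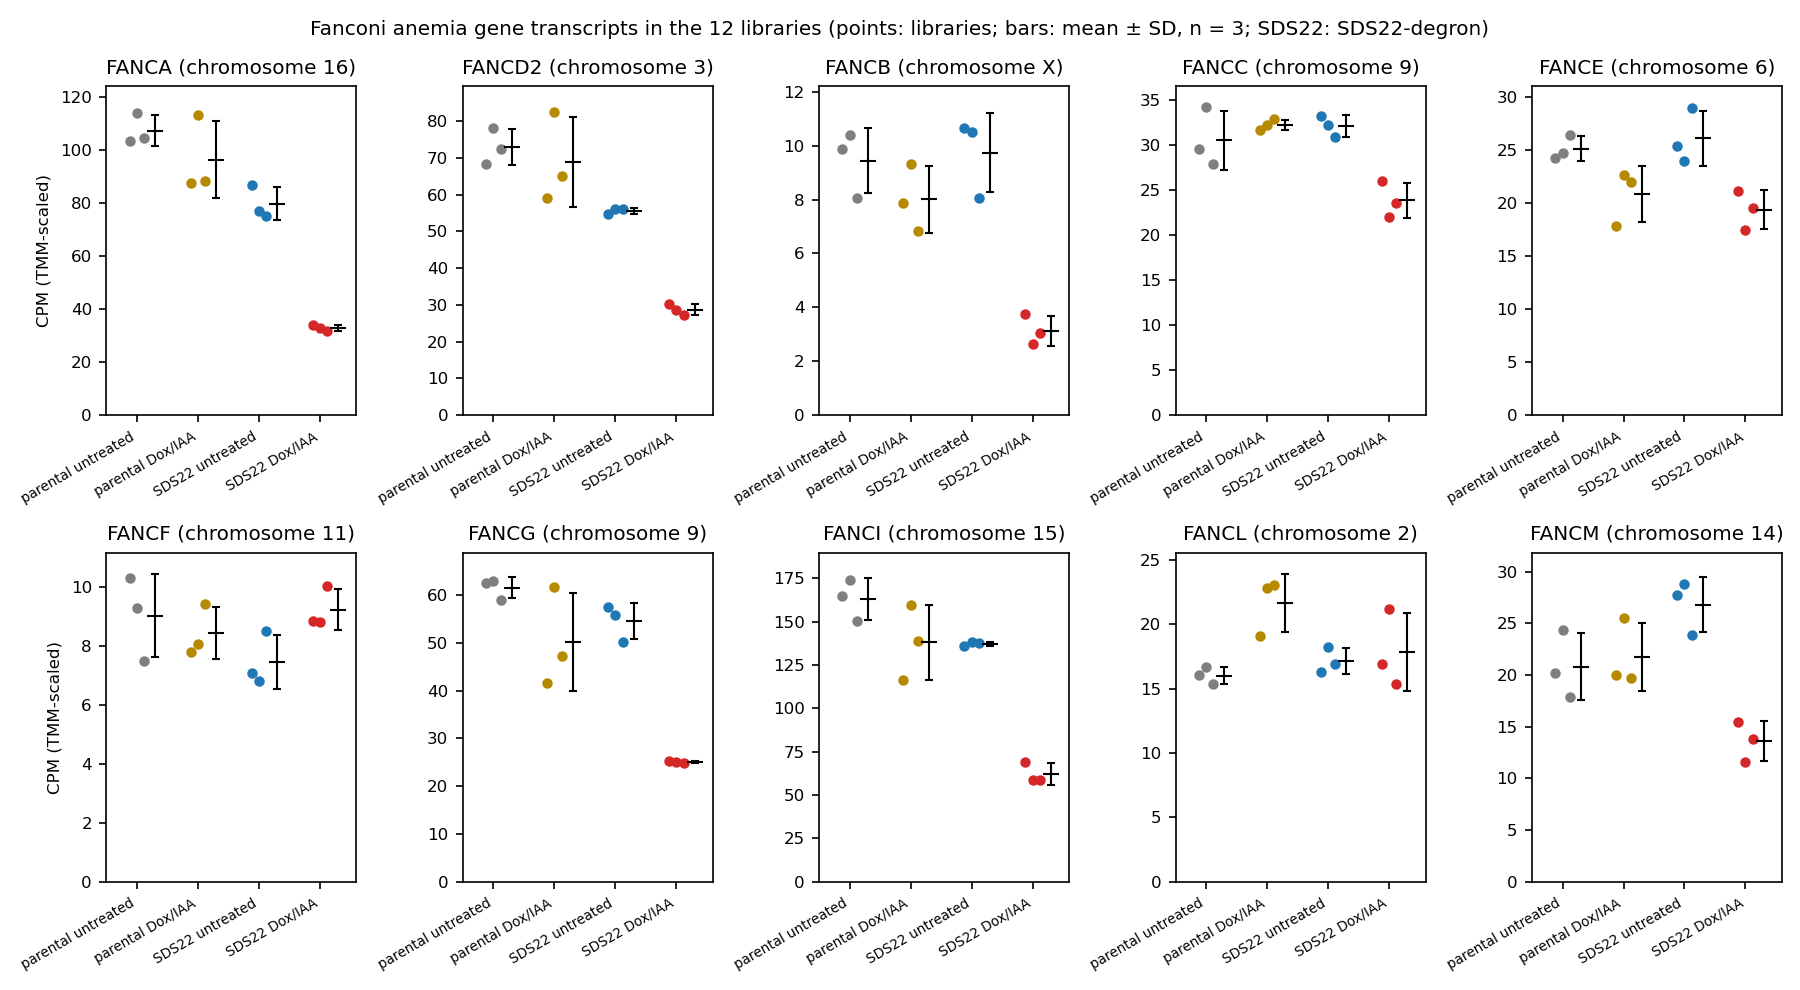
Level of each of the 10 genes in the 12 libraries (CPM, linear axes from 0), with coloured points for the libraries of each group and black bars for the mean ± SD (n = 3). For FANCA, FANCD2, FANCB, FANCG, FANCI, FANCM and FANCC the treated SDS22-degron libraries lie below all others, while FANCE, FANCF and FANCL show no such gap.

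In Dox/IAA-treated SDS22-degron cells, 7 of the 10 genes were lower than in treated parental cells and 0 were higher. They included both members of the FANCI-FANCD2 pair, the anchor FANCM and 4 of the 7 subunits of the core complex (FANCA, FANCB, FANCC and FANCG), while FANCE, FANCF and FANCL did not pass the test. A gene was called where its p in the quasi-likelihood test of edgeR, adjusted over all tested genes after Benjamini and Hochberg, was under 0.05, and 23.1% of tested genes were called lower and 21.8% higher. FANCA had the largest difference, -1.55 on the log2 scale (standard error 0.0954, adjusted p = 1.36e-09), which is 34.1% of the parental level. It was followed by FANCB (-1.35 ± 0.185), FANCD2 (-1.26 ± 0.102), FANCI (-1.15 ± 0.0974) and FANCG (-1.001 ± 0.111, log2 fold change ± standard error). FANCM differed by -0.68 (adjusted p = 0.000612) and FANCC by -0.43 (adjusted p = 0.000750). The 95% interval was -0.52 to -0.04 for FANCL, -0.33 to 0.13 for FANCE and -0.16 to 0.43 for FANCF. The median over the 10 genes was -0.84, against -0.01 over all tested genes, and the libraries of 7 genes did not overlap, against 52.9% of all genes. At the cut-off of the study for differential expression, which asks for a log2 fold change beyond 1 at an unadjusted p under 0.05, 5 of the genes were lower, against 3.38% of all tested genes. FANCL had an adjusted p of 0.0572 and was called lower under 8 of 26 alternatives (adjusted p from 0.00640 to 1 over all of them). These were the likelihood ratio test that the study names, no filter, the replicate number as a block, the chromosome and window corrections (the median of the chromosome, or of genes within 10 Mb, removed in each library), the chromosome correction with the block, and the fits without replicate 1 of treated parental cells or replicate 2 of treated SDS22-degron cells. Same-numbered libraries of the treated lines deviated together in all 3 pairs, and with the block 8 genes were lower, FANCL at -0.28 (adjusted p = 0.0268), against 24.8% of all tested genes.

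In the untreated lines, the 2 genes on chromosomes 3 and 16 were the ones that were lower in SDS22-degron cells. FANCA stood at -0.43 on the log2 scale (standard error 0.0892, adjusted p = 0.00143), 74.3% of the parental level, and FANCD2 at -0.39 (standard error 0.0964, adjusted p = 0.00504), 76.2%. Among the 8 other genes, 0 were lower and 1 was higher, FANCM, with a log2 fold change of 0.37 (adjusted p = 0.0413) and overlapping libraries. FANCI missed the threshold at -0.25 (adjusted p = 0.0542), and the 6 remaining genes lay between -0.28 (FANCF) and 0.10 (FANCL). In this comparison 15.01% of all tested genes were called lower and 13.2% higher, and libraries of 4 genes (FANCA, FANCD2, FANCG and FANCI) did not overlap, against 43.5% of all genes. The call of FANCM was lost under 8 of 26 alternatives, the chromosome correction (with or without the block), the window correction, glmTreat (which tests against a minimum fold change), and the fits without replicate 1 or 3 of untreated parental cells or replicate 1 or 2 of untreated SDS22-degron cells. FANCI was called under 9, the likelihood ratio test, no filter, the block, the GC correction (with or without the block), the compared groups alone, and the fits without replicate 3 of untreated parental cells or replicate 1 or 2 of treated parental cells, which share the estimate of the spread.

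The difference of FANCA and FANCD2 in the untreated lines was close to that of their chromosomes. The median log2 fold change was -0.30 over 726 tested genes of chromosome 16 and -0.27 over 939 tested genes of chromosome 3, the lowest medians of all chromosomes, and 45.7% and 44.7% of these genes were called lower, against 11.7% of the 14992 tested genes elsewhere. On their chromosome, 33.9% of genes had a lower value than FANCA and 33.5% a lower value than FANCD2. The line difference was not confined to these 2 chromosomes. On chromosomes 1, 8 and 15, 27.7%, 25.6% and 19.5% of tested genes were called lower, with medians of -0.13, -0.11 and -0.10. FANCI, on chromosome 15, differed by -0.16 (adjusted p = 0.225) with the chromosome correction, against -0.25 without it. With the median of each chromosome removed in each library, FANCA differed by -0.14 (adjusted p = 0.285) and FANCD2 by -0.13 (adjusted p = 0.353), and 0 of the 10 genes were called. No share of all tested genes is given with this correction, so the count is not read against a background. With the median of genes within 10 Mb removed instead, FANCD2 differed by -0.13 (adjusted p = 0.363), while FANCA kept a difference of -0.36 (adjusted p = 0.0114), and the 88 genes around it had a median of -0.12. Treated with Dox/IAA, the lines showed nearly the same medians of chromosomes 16 (-0.31) and 3 (-0.26), but only 1.93% of chromosome 16 genes were below FANCA and 2.45% of chromosome 3 genes below FANCD2. After the chromosome correction the treated lines still differed by -1.24 in FANCA (adjusted p = 2.65e-08) and by -1.003 in FANCD2 (adjusted p = 3.27e-07), and FANCL joined the genes called lower, at -0.33 (adjusted p = 0.0267).

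**Figure D3:**
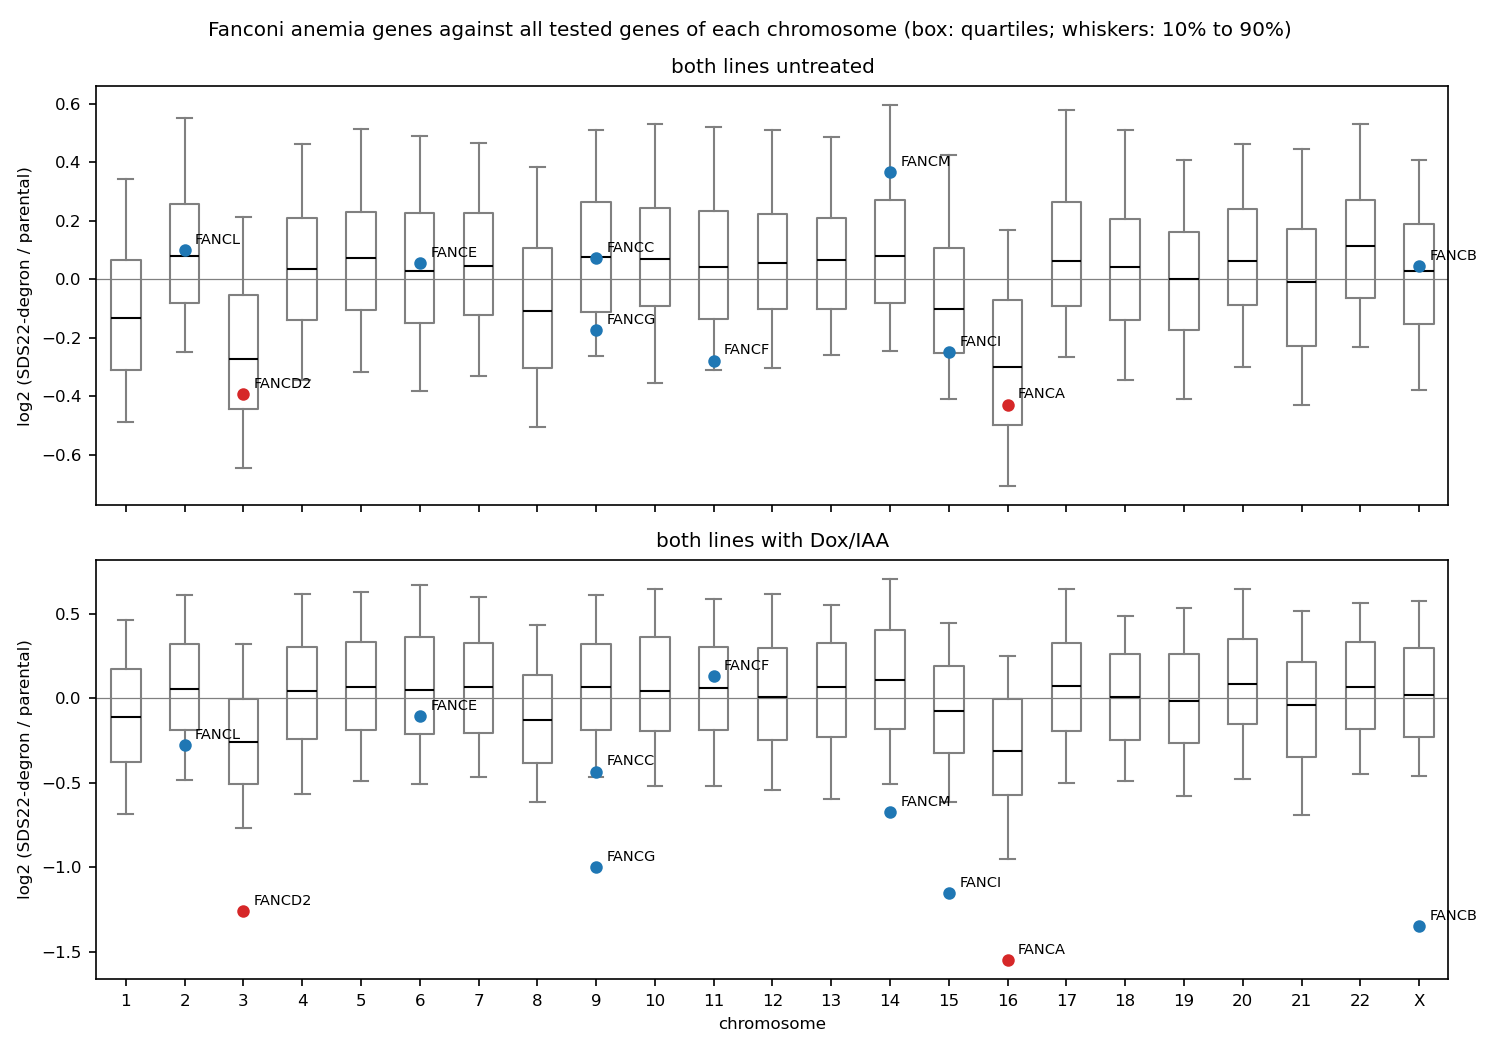
Log2 ratio of SDS22-degron to parental cells for all tested genes of each chromosome (box: quartiles; whiskers: 10% to 90%) with the Fanconi anemia genes as points, red on chromosomes 3 and 16. Untreated, FANCA and FANCD2 sit within the lowered boxes of chromosomes 16 and 3. With Dox/IAA they and FANCB, FANCG, FANCI and FANCM fall below the whiskers of their chromosomes.

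Within parental cells, Dox/IAA moved FANCG and FANCL in opposite directions, and FANCE and FANCI were lower too once libraries were paired by number. FANCG was lower after Dox/IAA, by 0.30 on the log2 scale (-0.30, standard error 0.105, adjusted p = 0.0385) and overlapping libraries, and FANCL was higher by 0.43 (standard error 0.117, adjusted p = 0.00852), or 135% of the untreated level. Of all tested genes, 15.7% were called lower and 15.9% higher, and 1 of 10 in each direction is near that background. The groups did not overlap for 2 genes (FANCE and FANCL), against 41.3% of all genes. FANCE (-0.27, adjusted p = 0.0629) and FANCI (-0.24, adjusted p = 0.0586) missed the threshold. All 3 pairs of same-numbered untreated and treated parental libraries deviated together (correlations of 0.124, 0.246 and 0.131 across genes), and with the replicate number as a block 4 genes were called in place of 2, at 17.9% of all tested genes called lower. FANCG, FANCE (adjusted p = 0.0435) and FANCI (adjusted p = 0.0372) were then lower and FANCL higher. In every pair FANCA, FANCB, FANCE, FANCG and FANCI were lower in the treated library. Over 26 alternatives FANCE was called under 6 (adjusted p from 0.0163 to 1) and FANCI under 9 (from 0.00497 to 1). FANCA (-0.16) and FANCD2 (-0.08) had 95% intervals of -0.34 to 0.03 and -0.29 to 0.12. Replicate 2 of treated parental cells stood above the other 2 in the summed level of the 10 genes, with 537 CPM against 409 and 453 CPM, and also in that of 12 mitotic genes, with 2738 CPM against 1921 and 2023 CPM. Replicate 2 was also the highest of the untreated parental libraries in the 10 genes, with 549 CPM against 509 and 489 CPM. Without replicate 2 of treated parental cells 6 genes were called, FANCA (-0.28, adjusted p = 0.00855), FANCD2 (-0.23), FANCE (-0.33), FANCG (-0.47) and FANCI (-0.35) lower and FANCL (0.40) higher. Over all genes, fits with a library left out called between 3934 and 5270 in this comparison, both directions together. FANCG lost its call under 10 alternatives, library size only, the upper quartile, the window correction, glmTreat, the compared groups alone, and the fits that left FANCL alone called, without replicate 1 or 2 of untreated parental cells, replicate 1 or 3 of treated parental cells or replicate 2 of untreated SDS22-degron cells.

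Within SDS22-degron cells, Dox/IAA lowered 8 of the 10 genes and raised 0, at a background of 25.5% called lower and 26.05% higher. FANCB fell most, by 1.63 on the log2 scale (standard error 0.179, adjusted p = 6.01e-07), to 32.3% of its untreated level. FANCA fell by 1.28 (adjusted p = 7.85e-09), FANCI by 1.14, FANCG by 1.12, FANCM by 0.98 and FANCD2 by 0.96, each to between 41.2% and 51.6% of the untreated level. FANCC and FANCE fell by 0.43 each, to 74.3%. FANCL was at 0.06, with a 95% interval of -0.19 to 0.30, and FANCF at 0.31 (adjusted p = 0.0755), higher in all 3 libraries than in any untreated SDS22-degron library. FANCF was called higher under 5 of 26 alternatives (adjusted p from 0.0299 to 1 over all of them), with library size only, the GC correction, the GC correction with the block, the window correction (0.39, adjusted p = 0.0299) and without replicate 3 of untreated SDS22-degron cells (0.41, adjusted p = 0.0414). The groups did not overlap for 9 of 10 genes, against 59.9% of all genes, and the median over the 10 genes was -0.97, against 0.00 over all genes.

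The effect of Dox/IAA differed between the lines for 7 of the 10 genes, each relatively lower after Dox/IAA in SDS22-degron cells. The interaction, the effect in SDS22-degron cells minus that in parental cells on the log2 scale, was lowest for FANCB (-1.39, standard error 0.240, adjusted p = 0.000800). It was -1.12 for FANCA (adjusted p = 3.37e-05), -1.04 for FANCM, -0.90 for FANCI, -0.87 for FANCD2, -0.83 for FANCG and -0.51 for FANCC (adjusted p = 0.0118). Over all genes 8.35% had a called interaction below 0 and 6.03% above 0. The 95% interval was -0.48 to 0.16 for FANCE and -0.01 to 0.83 for FANCF. That of FANCL, -0.72 to -0.03, excluded 0, but its p adjusted over all tested genes was 0.139. None of these 3 was called, so they were not shown to respond differently in the lines. FANCL passed the test without replicate 2 of treated SDS22-degron cells, at -0.52 (adjusted p = 0.0340). The 5 comparisons share libraries and are not independent of each other.

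**Figure D4:**
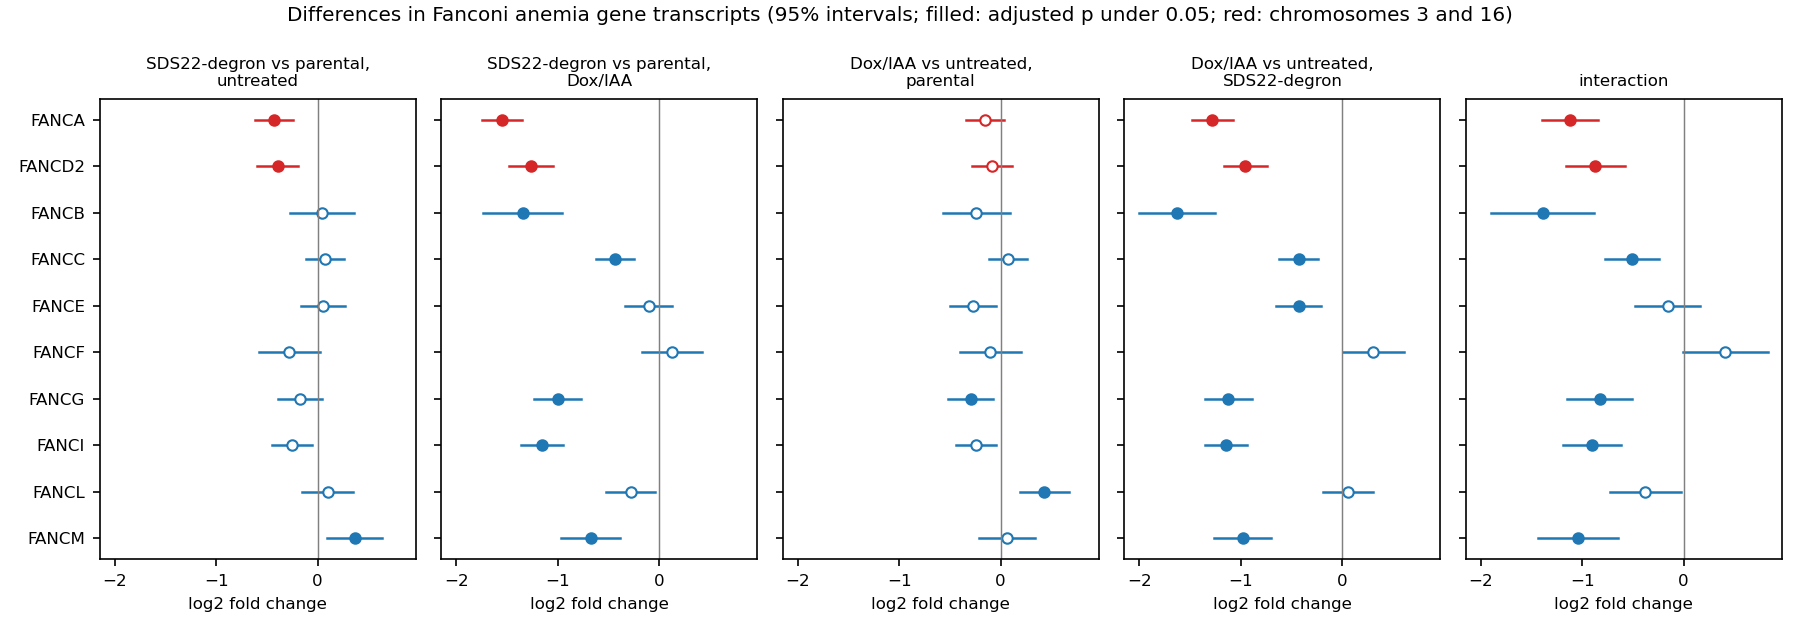
Log2 fold changes of the 10 genes in the 5 comparisons, with 95% intervals as lines, filled points for an adjusted p under 0.05 and red for chromosomes 3 and 16. The points of FANCA and FANCD2 are left of 0 between the untreated lines, and 7 filled points lie left of 0 for the treated lines and for the interaction.

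Set apart by chromosome, FANCA and FANCD2 had a median log2 fold change of -0.41 between the untreated lines, against 0.05 for the other 8 genes, and of -1.41 against -0.55 between the treated lines. With the chromosome correction these became -0.14 against 0.00 untreated and -1.12 against -0.64 treated. For Dox/IAA in SDS22-degron cells the medians were -1.12 and -0.70, in parental cells -0.12 and -0.17, and for the interaction -0.996 and -0.67. The 8 other genes ranged widely around their median, from -1.63 (FANCB) to 0.31 (FANCF) for Dox/IAA in SDS22-degron cells, and the -1.28 of FANCA and -0.96 of FANCD2 lie within this range. With 2 genes on one side, no test of the medians was made.

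The other genes of the pathway, 28 of 29 of them tested, were mostly lower in treated SDS22-degron cells too. Between the treated lines 23 were lower and 1 was higher, against 23.1% and 21.8% of all tested genes. The higher one was REV3L, the catalytic subunit of a translesion polymerase, at 0.51 (adjusted p = 7.61e-06). All 6 partners of the core complex were lower, with UBE2T at -0.87 (adjusted p = 1.41e-07). With the chromosome correction FAAP20 (-0.17, adjusted p = 0.120) and CENPS (-0.41, adjusted p = 0.125), both on chromosome 1, were not called, while the other partners were. Dox/IAA in SDS22-degron cells lowered 4 of the 6, and the interaction was called below 0 for 2, against 25.5% and 8.35% of all tested genes. USP1, the deubiquitinase that removes ubiquitin from FANCD2, was at -1.29 (adjusted p = 9.04e-09), and its cofactor WDR48 at -0.06 (adjusted p = 0.588). Of the incision genes 6 of 7 and of the recombination genes 7 of 8 were lower, with the scaffold SLX4 at -1.19 and the tumour suppressor BRCA1 at -1.17 (adjusted p = 8.60e-08). Of the translesion genes 1 of 3 was lower, and both tested checkpoint kinases were, with CHEK1 at -1.04 (adjusted p = 5.56e-08). The median of the 28 genes was -0.60.

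Within SDS22-degron cells, Dox/IAA lowered 19 and raised 1 of these 28 genes, against 25.5% and 26.05% of all tested genes, and all 8 recombination genes were among those that fell. XRCC2, a recombination mediator, was at -1.82 (adjusted p = 1.26e-09), UBE2T at -1.16 and CHEK1 at -1.06, and WDR48 was the gene that rose, at 0.24 (adjusted p = 0.0240). In parental cells 6 were lower and 2 higher, against 15.7% and 15.9% of all tested genes. With the replicate block 8 were lower and 2 higher, where 17.9% of all tested genes were called lower. These counts were not tested against their background. Among the genes called without the block were PALB2, which links BRCA1 to BRCA2, at -0.45 (adjusted p = 0.000641), FAAP100 at -0.27 (adjusted p = 0.00561) and FAAP20 at 0.28 (adjusted p = 0.0158). The interaction was called below 0 for 15 genes and above 0 for 0 genes, against 8.35% and 6.03% of all tested genes, with XRCC2 at -1.51, BRCA1 at -1.05 and UBE2T at -0.98. As among the Fanconi anemia genes themselves, the fall in SDS22-degron cells was not shared by every member.

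The other genes of the pathway were also split by chromosome. Chromosomes 3 and 16 were set apart because their genes were lower between these same untreated libraries, so calls there are no independent repeat. Between the untreated lines, all 6 on chromosomes 3 and 16 were called lower, where 44.7% and 45.7% of all tested genes of these chromosomes were. Of the 22 elsewhere 4 were lower and 3 higher, against 11.7% and 14.3% of all tested genes there, a share that differed between chromosomes. On chromosome 16 these were PALB2 at -0.73 (adjusted p = 5.72e-06), the nuclease ERCC4 at -0.58 (adjusted p = 0.000483), SLX4 at -0.42 and the ubiquitin ligase RFWD3 at -0.28. On chromosome 3 they were ATR, the kinase that signals stalled forks, at -0.31 (adjusted p = 0.00574) and WDR48 at -0.29 (adjusted p = 0.0146). After the chromosome correction, chosen for these genes after seeing the data, 1 of the 6 was still called lower, PALB2 at -0.45 (adjusted p = 0.000842), and elsewhere 3 were lower and 2 higher. Counts after the correction are not read against a background, as no share of all tested genes is given with it. On chromosome 1, 27.7% of tested genes were called lower between the untreated lines. USP1, which lies there, was at -0.65 without correction (adjusted p = 2.92e-05) and at -0.52 with the chromosome correction (adjusted p = 0.000233). Between the treated lines 5 of the 6 were lower both before and after the correction, and the median of the 6 moved from -0.64 to -0.33. PALB2 went from -0.62 to -0.31, RFWD3 from -0.65 to -0.34, ERCC4 from -0.78 to -0.47, ATR from -0.54 to -0.28 and SLX4 from -1.19 to -0.88. Within SDS22-degron cells, Dox/IAA moved SLX4 by -0.45, RFWD3 by -0.41, ATR by -0.37 and PALB2 by -0.34, each called lower, and ERCC4 by -0.02 (adjusted p = 0.877).

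**Figure D5:**
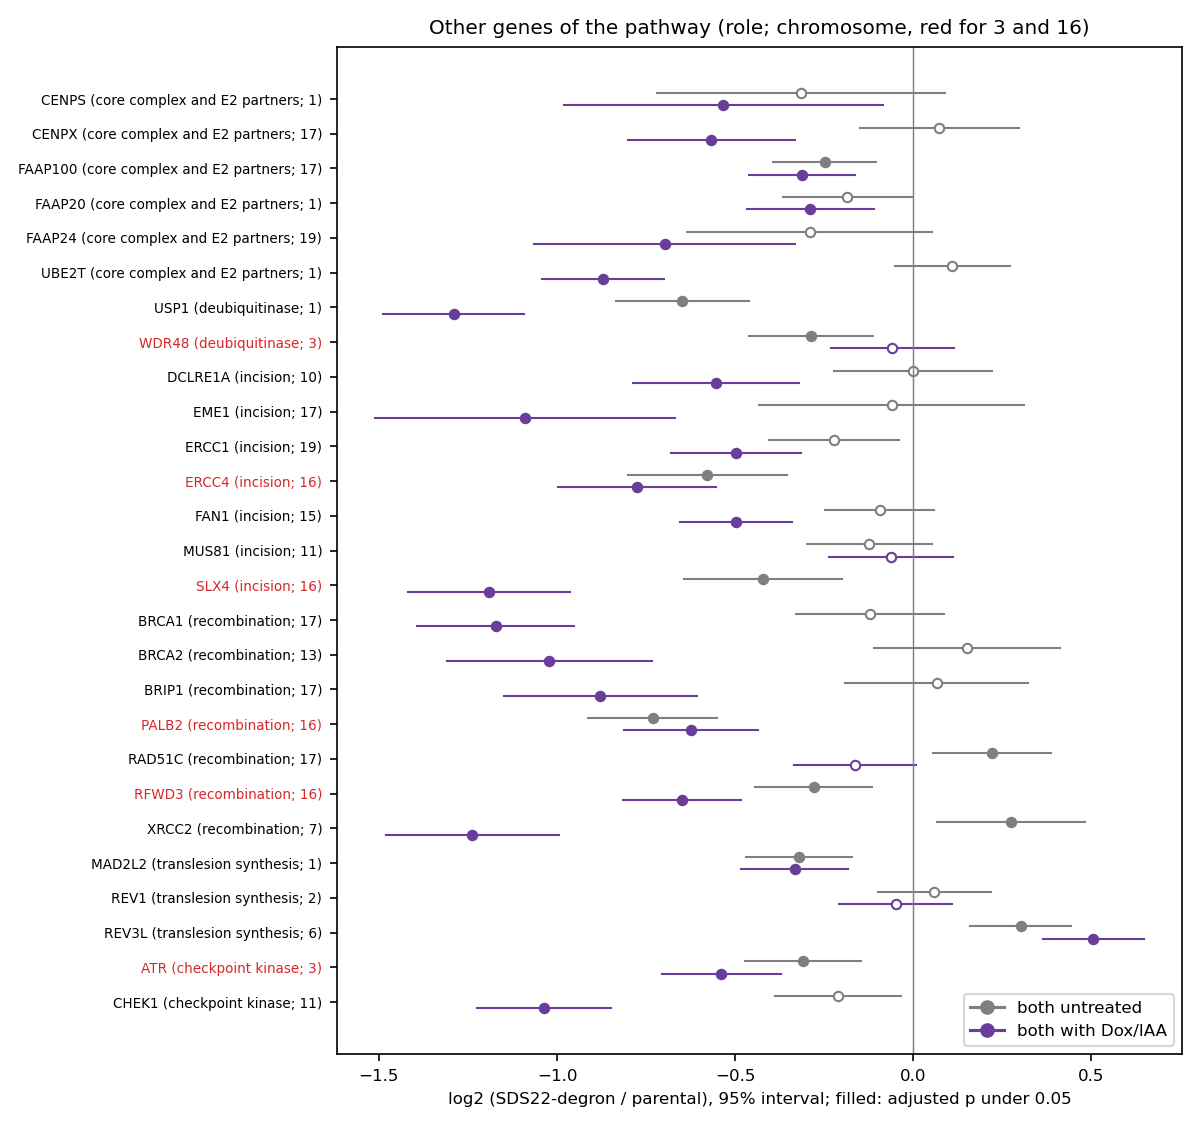
Log2 ratio of SDS22-degron to parental cells for 27 other genes of the pathway, by role, untreated (grey) and with Dox/IAA (purple), with 95% intervals and filled points for an adjusted p under 0.05. All 6 genes with red labels, on chromosomes 3 and 16, have a filled grey point left of 0, and REV3L has filled points right of 0.

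Genes of S phase and mitosis were lower together with the Fanconi anemia genes. The summed level of 16 S phase genes was between 1390 and 1774 CPM in treated SDS22-degron cells, against 3498 to 3570 CPM in untreated SDS22-degron cells, 2945 to 3551 CPM in treated and 3584 to 4181 CPM in untreated parental cells. That of 12 mitotic genes was between 929 and 1091 CPM in treated SDS22-degron cells and between 1921 and 2815 CPM in the other 3 groups. All 16 and all 12 were called lower between the treated lines, with medians of -1.09 and -1.06, and had an interaction below 0, with medians of -0.95 and -1.34. The 10 Fanconi anemia genes together summed to between 227 and 251 CPM in treated SDS22-degron cells and to between 409 and 549 CPM in the other groups. The share of cells in each phase was not measured in these libraries, and its part in the differences was not tested.

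The genes with a pattern most like that of FANCA, FANCD2 and FANCI were sought over the 12 libraries by the root mean square difference of log2 CPM, each gene centred on its mean. Nearest to FANCA were the mitotic kinase PLK1 (0.120, chromosome 16), KIAA1524 (0.127, chromosome 3) and the kinesin KIF22 (0.132, chromosome 16), against a median of 0.712 over all genes. Nearest to FANCD2 were the kinetochore gene ZWINT (0.0578), PHF19 (0.0652) and the centriole gene STIL (0.0887), against a median of 0.589. Nearest to FANCI were TAF5 (0.0649), LMNB1, which encodes lamin B1 (0.0657), and RNASEH2A (0.0744), against a median of 0.599. Among the Fanconi anemia genes themselves, FANCG was the nearest to FANCI at 0.103, FANCI the nearest to FANCD2 at 0.123 and FANCD2 the nearest to FANCA at 0.156, while FANCF lay between 0.613 and 0.748 from these 3.

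Genes that overlap these by position bear on how their reads were assigned, as the libraries were stranded but the strand setting of the counting is not given in the sources used here. FANCA overlaps ZNF276 on the opposite strand, which was counted at 404 to 847 reads and differed by -0.75 between the treated and by 0.04 between the untreated lines. The untreated difference of FANCA was thus not shared by its neighbour. FANCI overlaps POLG (873 to 1349 counts, -0.27 between the treated lines) and FANCL overlaps VRK2 (385 to 580 counts, 0.01), both on the opposite strand. FANCC overlaps the pseudogene RP11-173G21.1, with 34 to 52 counts, and the remaining overlapping genes had at most 3 counts in any library. The pseudogene FANCD2P2 had 0 counts in every library.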

How the data were processed

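Stranded libraries of poly-A RNA were read from a single end. For each of the 12 libraries the authors deposited raw, unnormalized gene counts, with the position, length and, as a percent, GC content of each gene. The submitters' processing notes list cutadapt 1.15, Bowtie2 2.3.3.1, STAR 2.5.2b, SAMtools 1.5, featureCounts 1.5.3 and GRCh38. The annotation release is not given in the sources used here. Gene positions of all 10 members overlapped those of GRCh38.p14.

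Genes passing filterByExpr by group (minimum count 10) were fitted in edgeR 4.0.16 (R 4.3.3) with TMM factors, 4 group means and all 12 libraries, and tested with the quasi-likelihood F test, the study naming edgeR's likelihood ratio test. Called means a Benjamini-Hochberg adjusted p under 0.05 over 16657 genes. The common coefficient of variation was 7.48%, and standard errors on the log2 scale had a median of 0.110 for differences between groups and of 0.156 for the interaction. Replicate numbers marked no shared batch in the labels. Deviations of same-numbered libraries from their group means correlated above 0.1 across genes in all 3 pairs for untreated against treated parental cells (0.124 to 0.246) and for the treated lines (0.101 to 0.138), which were taken as paired, in 1 of 3 for the untreated lines and in 0 of 3 for SDS22-degron cells. Replicates differed by more than counting noise, and p-values measure the spread between these libraries only. Chromosome and window corrections subtracted, per library, the median deviation of genes on the chromosome or within 10 Mb.

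Members and lists were chosen with earlier results of these data known. Named genes are all members, genes overlapping them, the pathway genes on chromosomes 3 and 16, the 3 pathway genes of smallest p in each comparison and the 3 nearest patterns. REV3L and, between the treated lines, UBE2T, FAAP20 and CENPS were named after their values were seen. One pathway gene is counted in its list but not reported here. The procedure was tested on simulated data. Alternatives tried were DESeq2 1.42.0, the likelihood ratio test, other normalizations, filters and cut-offs, glmTreat against 0.5, GC, chromosome and window corrections, the replicate block, the groups compared alone and each library left out.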

Additional observations from a re-analysis of the deposited data

Results flagged for a closer look

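The effect of Dox/IAA differed between SDS22-degron and parental cells, by the test of the difference itself, for 7 of the 10 genes, all below 0, against 8.35% of all tested genes called below 0 and 6.03% above 0. On the log2 scale the interaction was -1.39 for FANCB, -1.12 for FANCA, -1.04 for FANCM, -0.90 for FANCI, -0.87 for FANCD2, -0.83 for FANCG and -0.51 for FANCC (edgeR's quasi-likelihood test, adjusted p between 3.37e-05 and 0.0118). With 3 libraries per group, outlying libraries were not searched for within groups.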

How the results depend on the processing

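The number of Fanconi anemia genes called between the treated lines was 7 and lay between 5 and 8 under all alternatives, and no called gene changed direction under any alternative. Of the values for single genes under the alternatives, 1214 kept their side of the threshold, 41 gained and 35 lost it. Between the untreated lines 3 genes were called, but 0 at the cut-off of the study, 0 with glmTreat, 0 with the chromosome correction, 1 with the window correction and 1 with the chromosome correction and the replicate block, and between 2 and 4 with a library left out. For Dox/IAA in parental cells 2 were called, but 0 at the cut-off of the study, 0 with glmTreat, 1 with library size only, the upper quartile or the groups compared alone, 4 with the replicate block, the GC correction, both of these, or the chromosome correction with the block, and between 1 and 6 with a library left out. For Dox/IAA in SDS22-degron cells 8 were called and 4 at the cut-off of the study. For the interaction 7 were called, 3 at that cut-off and 2 with glmTreat. These cut-offs also ask for a minimum fold change. The chromosome correction, applied to the other pathway genes after seeing the data, gave 6 calls against 13 between the untreated lines, and the replicate block, also applied to them after seeing the data, moved no count of theirs by over 1.5 times. Counts with the chromosome or window correction are not read against a background, as no share of all tested genes is given with them. The causes of the other changes were not tested.

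Of the 18 pairs of same-numbered libraries 7 had deviations correlated above 0.1, among them all 3 of untreated against treated parental cells and all 3 of the treated lines, and 12 of 12 libraries correlated best with their own number. With the replicate block, 4 genes were called between the untreated lines, 8 between the treated lines, 4 for Dox/IAA in parental cells, 8 in SDS22-degron cells and 7 in the interaction, adding FANCE and FANCI in parental cells, FANCL between the treated lines and FANCI between the untreated lines. Of all tested genes, 24.8% were then called lower between the treated lines and 17.9% in parental cells. For the other comparisons no share with the block is given, so their counts are not read against a background. Over all genes, the cut-off of the study and glmTreat moved the counts from 4698 to 689 and 605 (untreated lines), 7486 to 1105 and 1487 (treated lines), 5264 to 523 and 340 (parental), 8580 to 1305 and 2096 (SDS22-degron) and 2396 to 600 and 255 (interaction). FANCB and FANCF had the fewest reads and the widest intervals.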
